A study of Mus musculus with 20 samples.

Results

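The expression of 9 hair cell transcription factor genes was followed in mouse cochlea: *Atoh1*, *Pou4f3*, *Gfi1*, *Barhl1*, *Lhx3*, *Ikzf2*, *Insm1*, *Rfx3* and *Eya1*. They were taken by name from a fixed list and are 9 of the 24411 genes listed by the RNA-seq tables. All 9 are listed in both tables. The study compared mice homozygous for a deletion in *Adgrb1*, the gene for the adhesion receptor BAI1, with heterozygous littermates. Libraries came from the sensory epithelium and spiral ganglion, microdissected and pooled from 4 mice each. The paper gives the tissue of the RNA-seq as the apical coil of the cochlea. There were 3 Bai1tm2b/+ and 3 Bai1tm2b/tm2b libraries from postnatal day 22 (P22), and 7 of each genotype from postnatal day 7 (P7). All mice carried the tm2b allele on a C57BL/6N background, a strain with a hypomorphic *Cdh23* allele, and no wild-type library was analysed here. In the tm2b allele, Cre had removed exons 3 and 4 of *Adgrb1* and left a lacZ reporter, so that the long isoform is lost and a short isoform remains. The controls therefore also carry 1 copy of the deletion and of the reporter. Mice of both sexes were used.

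Hair cells, the sensory receptors of the inner ear, arise from progenitors that also give rise to the supporting cells around them. *Atoh1*, a basic helix-loop-helix (bHLH) activator, is the gene that starts this fate, and its expression is transient. *Pou4f3*, a POU homeodomain factor, and *Gfi1*, a zinc finger repressor also made in blood cells, act after it and are needed for hair cell survival. *Barhl1* and *Lhx3* encode homeodomain factors of differentiating hair cells. *Ikzf2* and *Insm1* encode zinc finger proteins of outer hair cells: *Insm1* acts transiently in young outer hair cells, and *Ikzf2* (helios) promotes their maturation. *Rfx3* encodes a winged-helix factor known for ciliary genes that also acts in hair cells. *Eya1* encodes a phosphatase and transcriptional coactivator that acts from the earliest stages of the ear, and it is not restricted to hair cells.

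On GRCm38 (mm10), with the GENCODE annotation, *Atoh1* is a gene of 1 exon on chromosome 6, from 64729125 to 64731245 on the plus strand. *Insm1* is also a gene of 1 exon, on chromosome 2 from 146221921 to 146225020, plus strand. *Barhl1* (28907679 to 28916668) and *Lhx3* (26200212 to 26208289) lie on the minus strand of the same chromosome. *Ikzf2* (69531214 to 69687245) and *Eya1* (14168954 to 14310235) are on the minus strand of chromosome 1, *Gfi1* is on the minus strand of chromosome 5 (107716657 to 107726036) and *Rfx3* on the minus strand of chromosome 19 (27761721 to 28011166). *Pou4f3* is a gene of 2 exons on a plus strand. Exons of 3 members overlap a gene on the opposite strand, by 6.17% of exon bases in *Lhx3*, 3.17% in *Gfi1* and 1.24% in *Ikzf2*. Whether the counting used strand is not given in the sources used here.

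Promoter sequences from RefSeq (GRCm38.p6), from 250 bases before a transcript start to 50 bases after it, matched 5 of the 9 genes, with 8 entries among them. They were searched on both strands for 2 spellings of the E-box bound by bHLH factors such as Atoh1, CAGCTG and CAGATG, and for TAATTA, a core bound by homeodomain factors. Of all 32851 promoters of this length, 16.3% hold CAGCTG, 17.2% hold CAGATG and 5.29% hold TAATTA. The entries of *Atoh1*, *Gfi1* and *Rfx3* hold none of these letters. Both *Barhl1* entries hold CAGCTG, 99 and 15 bases before the start, and the first of them also holds TAATTA, 29 bases after the start. The downstream start of *Lhx3* has CAGATG on the opposite strand, 215 bases before it. The windows of 30 bases around these letters are shown for the matches whose window lies wholly before the start, at chr2:28916750-28916779 for *Barhl1* and chr2:26206773-26206802 for *Lhx3*, both read along the minus strand, with the matched letters in capitals. The *Barhl1* window lies upstream of the annotated gene, and the *Lhx3* window lies in an intron of the longer *Lhx3* transcript.
Barhl1: ggccacgcagccCAGCTGgccctcctccca
Lhx3: ggcaggggcgagCATCTGtaggaagccttg
A match to 6 letters is a description of the sequence and not of binding.

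The P22 table and P7 replicates 5 to 7 hold estimated counts, with totals per library (in units of 1e6) from 35.7 to 40.4 at P22 and from 31.1 to 58.8 at P7. P7 replicates 1 to 4 hold TPM (transcript abundance scaled to gene length and library size) rounded to whole numbers, of unknown depth, and were tested apart. The labels give P7 batches of 3 and 4 replicates per genotype without naming their libraries, so that these sets are separated here by unit. Levels below are CPM (counts scaled to library size) on 1 scale for the 12 libraries in counts, or TPM where genes are compared with each other. *Adgrb1* at P22 read 152 to 167 CPM in Bai1tm2b/+ and 100 to 105 in Bai1tm2b/tm2b libraries. At P7 it read 32.1 to 56.4 and 21.6 to 31.2 CPM in counts, and the rounded TPM overlapped (7 to 12 and 9 to 12). All 20 hair cell markers on a fixed list were detected at both ages. The 3 most abundant at P22 were *Ocm* (488 TPM, oncomodulin of outer hair cells), *Cib2* (146 TPM) and *Myo6* (52.0 TPM). These are pools of dissected tissue with many cell types, so fewer cells of a type and less RNA per cell cannot be told apart. At P7, Bai1tm2b/+ replicate 6 stood apart by its neuron markers, 2969 CPM summed over 12 genes against 1154 to 1803 in the other 5 libraries, and by its total of 58.8 in the same units. Bai1tm2b/tm2b replicate 5 held 57.7 CPM of marrow neutrophil markers against 5.30 to 7.86 in the others.

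All 9 transcription factors were lower at P22 than at P7. In the fit of the 12 libraries in counts (edgeR quasi-likelihood test, Benjamini-Hochberg adjusted over 16314 genes), a gene passed at an adjusted p under 0.05, and all 9 did so. Differences between these ages were common: 42.0% of all genes passed as lower and 38.2% as higher. The median log2 fold change of the 9 members was −1.80, beside −0.05 for all genes tested. For 7 of the 9 the log2 fold change was below −1.5, as it was for 11.3% of all genes. On the fixed lists described below, it was so for 8 of 10 supporting cell markers and 7 of 17 other otic and hair cell regulators. It was so for 2 of 10 bHLH and Prox1 antagonists, 1 of 20 hair cell markers and 0 of 12 neuron markers. The libraries of the ages did not overlap for 8 of the 9 members, as for 32.0% of all genes in the lower direction. Age coincides here with dissection batch and deposited table, and these cannot be told apart.

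*Atoh1*, the initiator, had the largest fitted fall of the 9. Its 6 P7 libraries read 0.757 to 2.74 CPM (median 1.29), from 32 to 94 counts each. At P22 the same gene read 0 to 0.399 CPM (median 0.0265), and 3 libraries had no count, which allows up to 0.0943, 0.0880 and 0.0814 CPM at 3 counts (counting error only). Thus 392 counts at P7 stood against 17 at P22, of which 13 came from Bai1tm2b/+ replicate 1. The log2 fold change was −4.35 (SE 0.700, adjusted p = 8.01e-05), and without that library it was −7.09. *Insm1*, the other transient gene, read 0.367 to 0.71 CPM at P7 (median 0.511) and 0 to 0.147 at P22 (median 0.0935). It summed to 146 and 18 counts, with a log2 fold change of −2.61 (SE 0.412, adjusted p = 6.66e-05). For both genes the lowest P7 library was above the highest P22 library, and the size of the fold rests on few counts at P22.

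The survival factor *Pou4f3* read 12.5 to 26.3 CPM at P7 (median 18.0) and 3.08 to 6.90 at P22 (median 5.31), a log2 fold change of −1.84 (SE 0.196, adjusted p = 1.69e-06). *Gfi1* read 10.3 to 19.7 CPM at P7 (median 12.9) and 5.53 to 10.6 at P22 (median 8.96). Its groups overlapped, since Bai1tm2b/+ replicate 1 at P22 lay above the lowest P7 library, and its log2 fold change was −0.70 (SE 0.182, adjusted p = 0.00345). The marrow neutrophil list summed to 20.1 CPM in that P22 library and to 7.92 and 9.53 in the other Bai1tm2b/+ libraries of its age. In the Bai1tm2b/tm2b libraries at P22 it summed to 69.9, 57.7 and 8.23 CPM, where *Gfi1* read 8.46, 10.3 and 9.46 CPM. At P7, Bai1tm2b/tm2b replicate 5 held 57.7 CPM of these markers and the lowest *Gfi1* level of its age. The part of these markers in the *Gfi1* level was not tested.

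*Barhl1* and *Lhx3*, the homeodomain genes of differentiation, both fell. *Barhl1* went from 7.14 to 16.6 CPM at P7 (median 8.75) to 1.32 to 4.38 at P22 (median 2.97), with a log2 fold change of −1.80 (SE 0.208, adjusted p = 3.6e-06). *Lhx3* went from 4.17 to 7.11 CPM (median 6.01) to 0.943 to 2.55 (median 1.55), with a log2 fold change of −1.94 (SE 0.175, adjusted p = 3.54e-07). For the outer hair cell gene *Ikzf2* the values were 19.2 to 28.7 CPM at P7 (median 26.9) and 6.66 to 10.4 at P22 (median 8.43), a log2 fold change of −1.62 (SE 0.103, adjusted p = 1.2e-08).

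*Rfx3*, the ciliary gene regulator, read 27.3 to 38.4 CPM at P7 (median 34.6) and 9.65 to 11.8 at P22 (median 11.0). Its log2 fold change of −1.62 had the smallest standard error of the 9 (SE 0.0713, adjusted p = 4.92e-10). *Eya1*, the member with the widest expression in the ear, read 141 to 195 CPM at P7 (median 163) and 94.8 to 111 at P22 (median 101), a log2 fold change of −0.67 (SE 0.0789, adjusted p = 4.34e-06). In fits within a genotype, each of the 9 also passed as lower in Bai1tm2b/+ libraries alone, from −3.35 for *Atoh1* to −0.65 for *Eya1*. It did so in Bai1tm2b/tm2b libraries alone as well, from −5.32 for *Atoh1* to −0.64 for *Gfi1*. Over all genes, 5983 passed as lower and 5947 as higher in Bai1tm2b/+ libraries alone. In Bai1tm2b/tm2b libraries alone, 5721 passed as lower and 5296 as higher.

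**Figure D1:**
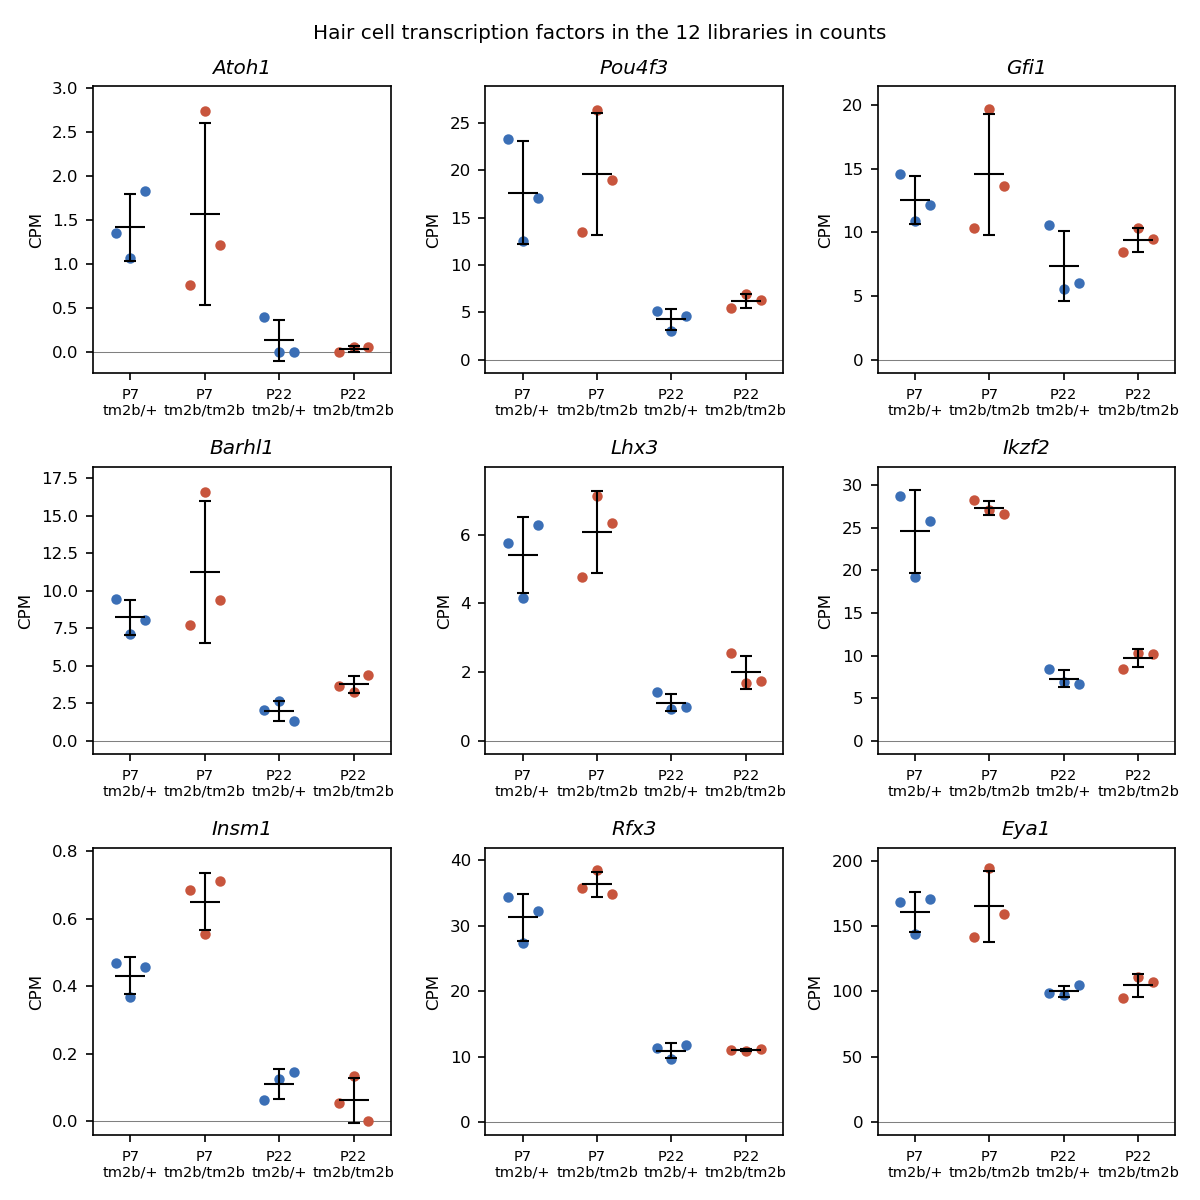
CPM of each of the 9 genes (vertical axes, 1 scale for each gene, each reaching 0) in the 12 libraries in counts, by age and genotype. Points are libraries (blue Bai1tm2b/+, red Bai1tm2b/tm2b), long dashes and bars the mean and SD of 3 libraries. In each panel except *Gfi1*, all 6 P7 libraries lie above all 6 P22 libraries.

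Levels of different genes were compared as TPM computed from the counts and exon lengths. At P7 the order was *Eya1* (90.9 ± 10.4 TPM), *Pou4f3* (33.8 ± 9.66), *Gfi1* (18.5 ± 4.51), *Rfx3* (13.4 ± 1.86), *Barhl1* (10.9 ± 3.83), *Ikzf2* (9.79 ± 1.60), *Lhx3* (8.21 ± 1.51), *Atoh1* (3.05 ± 1.41) and *Insm1* (0.765 ± 0.217; mean TPM ± SD, n = 6). The libraries of neighbours from *Pou4f3* to *Lhx3* overlapped, while *Eya1* lay above, and *Atoh1* and then *Insm1* below, all libraries of the gene before. At P22 *Eya1* was again first at 44.8 ± 3.64 TPM (SD, n = 6). *Gfi1* came next at 9.03 ± 2.42 and *Pou4f3* at 7.51 ± 2.04 TPM (SD, n = 6), and their libraries overlapped. *Rfx3* (3.40 ± 0.250 TPM), *Barhl1* (2.53 ± 0.991), *Ikzf2* (2.51 ± 0.505) and *Lhx3* (1.75 ± 0.663; SD, n = 6) followed below all *Pou4f3* libraries, each overlapping the next of these 4. *Atoh1* (0.136 ± 0.250 TPM) and *Insm1* (0.0957 ± 0.0636; SD, n = 6) overlapped at the bottom. The means of *Pou4f3* and *Gfi1* changed order between the ages, but their libraries overlapped at both.

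The hair cell marker *Myo7a*, the motor protein of stereocilia, served as a measure within each library, in which the scaling between libraries cancels. It was chosen after its values were seen and is unlike most of its list, where 12 of 20 markers were lower with age (median −0.87). *Myo7a* itself read 54.4 ± 5.78 CPM at P7 and 48.3 ± 5.25 at P22 (SD, n = 6), a log2 fold change of −0.17 that missed the threshold (edgeR adjusted p = 0.0503). On the TPM scale, which is without TMM scaling, it read 27.7 ± 3.62 and 19.3 ± 2.40 TPM (SD, n = 6). *Pou4f3* stood at 121 ± 26.9% of *Myo7a* TPM at P7 and at 38.6 ± 7.66% at P22 (SD, n = 6). *Barhl1* went from 38.9 ± 10.9% to 12.9 ± 4.20%, *Lhx3* from 29.6 ± 4.01% to 9.07 ± 3.51%, *Ikzf2* from 35.2 ± 2.37% to 12.9 ± 1.60% and *Rfx3* from 48.3 ± 2.54% to 17.8 ± 2.03% (SD, n = 6). *Atoh1* went from 10.9 ± 4.34% to 0.755 ± 1.47% and *Insm1* from 2.75 ± 0.661% to 0.510 ± 0.330%. The libraries of the ages did not overlap in this ratio for these 7 genes, nor for *Eya1* (276 to 357% and 209 to 250%). They overlapped for *Gfi1*, at 49.3 to 87.3% and 33.6 to 65.7%. The share of all genes without overlap in this ratio was not computed. On CPM it was 32.0% in the lower direction.

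Cell type markers moved with age as well. Of the 20 hair cell markers, 12 passed as lower and 4 as higher, with a median of −0.87, and 1 of the 20, *Ptprq* (a stereocilia phosphatase, −2.83), was below −1.5. Also lower were *Tmc1* (the transduction channel subunit, −1.35), *Chrna9* (the efferent acetylcholine receptor, −1.38) and *Myo6* (−0.65). All 12 neuron markers passed as higher (median 2.88), among them *Snap25* (4.12), *Nefh* (4.07), *Pou4f1* (2.92) and *Rbfox3* (2.44). They summed to 1154 to 2969 CPM at P7 and to 12043 to 18443 CPM at P22. Of 10 supporting cell markers 9 passed as lower and 1 as higher (median −2.13), with *Tecta* (−8.11) and *Tectb* (−7.51), which encode tectorial membrane proteins, falling most, beside *Lfng* (−2.74) and *Jag1* (−2.24). None of the markers of these 3 lists was at 0 over an age. The Schwann and myelin list had 7 of 8 higher and 1 lower (median 0.95). Their part in the levels of the transcription factors was not tested. With all libraries scaled to the mean of the 20 hair cell markers, a setting added after the data were seen, 7 of the 9 kept their call, from −3.71 for *Atoh1* to −0.99 for *Rfx3* and *Ikzf2*. *Gfi1* (−0.04, adjusted p = 0.813) and *Eya1* (−0.03, adjusted p = 0.839) did not. Over all genes, 2727 passed as lower and 9404 as higher under this scaling, which moved the median of all genes to 0.57.

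Other regulators of the otic and hair cell fate, a list of 17 genes, held 12 that passed as lower and 3 as higher, with a median of −0.90. *Mycl* (−2.40) and *Mycn* (−2.12), which encode growth regulators of the Myc family, were lower. *Rest*, the repressor of neuronal and hair cell genes, was lower by −1.92, and *Srrm4*, the splicing factor that inactivates Rest in hair cells and neurons, was higher by 1.79. Among 10 repressors and inhibitors of bHLH activators, taken with Prox1, 8 were lower and 1 higher (median −0.81). *Id2* (−1.61), *Id4* (−1.06), *Hey1* (−1.05) and *Hes1* (−0.65) were among the lower.

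**Figure D2:**
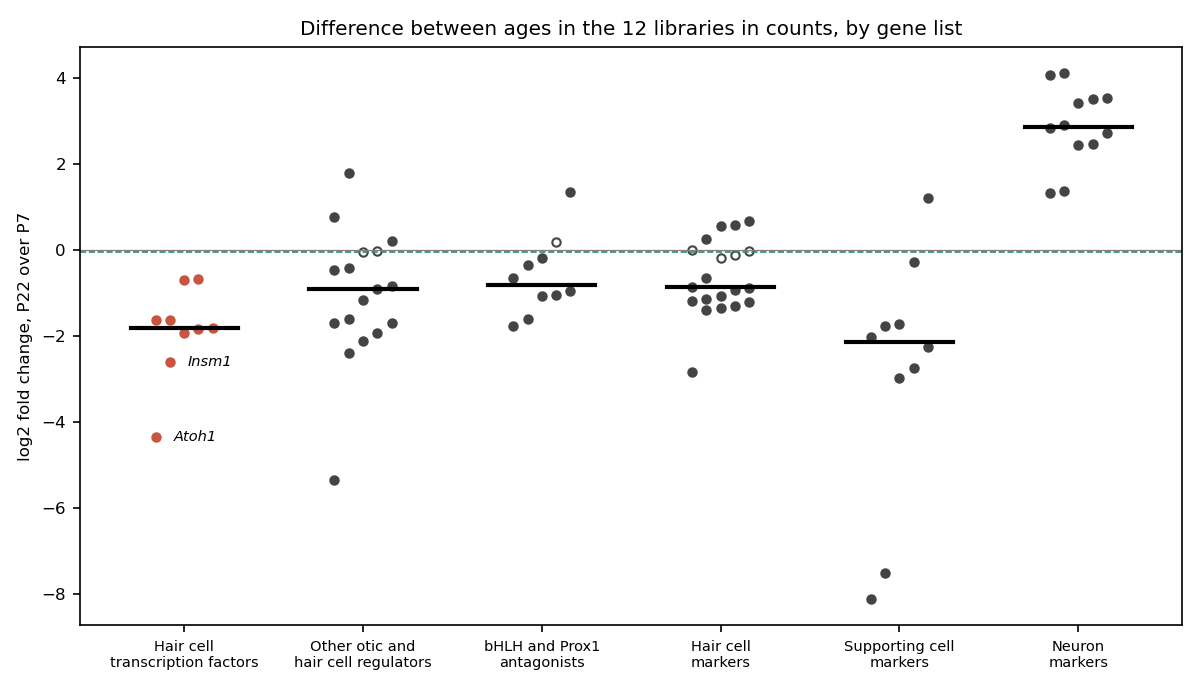
Log2 fold change of P22 over P7 for each gene (points, vertical axis) in 6 fixed lists (horizontal axis), from the 12 libraries in counts. Filled points passed at an adjusted p under 0.05, open points did not; bars are list medians and the dashed line is the median of all genes tested. The 9 transcription factors lie between −4.35 and −0.67, with a median of −1.80, beside −0.87 for hair cell markers, −2.13 for supporting cell markers and 2.88 for neuron markers.

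At P22, *Barhl1* was the only member that passed the test between genotypes, and it was higher in Bai1tm2b/tm2b. It read 2.06, 2.64 and 1.32 CPM in the Bai1tm2b/+ libraries and 3.63, 3.29 and 4.38 CPM in the Bai1tm2b/tm2b libraries, from 45 to 157 counts each. Every homozygous library lay above every heterozygous one. The means were 2.01 ± 0.661 and 3.77 ± 0.558 CPM (SD, n = 3), a log2 fold change of 0.92 (SE 0.256, edgeR adjusted p = 0.0416). Thus 1 of the 7 members tested passed as higher, where 5.04% of all 15443 genes did so, and none passed as lower (7.28% of all genes). The call was close to its threshold: it held when Bai1tm2b/+ replicate 2 was left out (1.16, adjusted p = 0.0178), and it was lost when any of the other 5 libraries was left out (0.69 to 1.01, adjusted p from 0.0816 to 0.123). With the replicate number as a block in the edgeR fit it was also lost (0.94, adjusted p = 0.0633).

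The other members had positive log2 fold changes that did not pass, and all 7 were above 0, beside 52.4% of all genes. Above 0 were also 18 of 20 hair cell markers, 9 of 10 supporting cell markers and 1 of 12 neuron markers. *Lhx3*, the second homeodomain gene, read 1.41, 0.943 and 0.997 CPM in Bai1tm2b/+ and 2.55, 1.70 and 1.73 CPM in Bai1tm2b/tm2b. These groups did not overlap, and the log2 fold change was 0.84 (SE 0.286, adjusted p = 0.0813). *Pou4f3* read 5.19, 3.08 and 4.61 CPM against 5.42, 6.90 and 6.33, a log2 fold change of 0.54 (SE 0.199, adjusted p = 0.101). *Ikzf2* read 8.41, 6.88 and 6.66 CPM against 8.46, 10.4 and 10.2, with 0.41 (SE 0.140, adjusted p = 0.0805). In both, the highest heterozygous and lowest homozygous libraries were nearly level. Without overlap and higher in Bai1tm2b/tm2b were 4 of the 7 members, where 15.0% of all genes were so. The unadjusted p was under 0.05 for the same 4, beside 28.7% of all genes.

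*Gfi1* read 10.6, 5.53 and 6.01 CPM in Bai1tm2b/+ and 8.46, 10.3 and 9.46 in Bai1tm2b/tm2b, so that 1 heterozygous library exceeded all homozygous ones. Its log2 fold change was 0.36 (SE 0.219, adjusted p = 0.307), and without that library, Bai1tm2b/+ replicate 1, it was 0.71 (adjusted p = 0.0371). For *Rfx3* the libraries read 11.3, 9.65 and 11.8 CPM against 11.0, 10.9 and 11.1. Its groups overlapped and the 95% interval of the log2 difference ran from −0.23 to 0.27. For *Eya1* they read 98.4, 96.8 and 104 CPM against 94.8, 111 and 107, with an interval from −0.08 to 0.23. *Atoh1* (13, 0 and 0 counts against 0, 2 and 2) and *Insm1* (2, 4 and 5 counts against 2, 5 and 0) were under the filter on low counts, and no difference was detectable at this depth.

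Markers of hair cells and supporting cells moved in the same direction as *Barhl1*. Of the 20 hair cell markers 9 passed as higher in Bai1tm2b/tm2b and 0 as lower (median 0.43), among them *Espn* (the actin bundler espin, 0.99), *Ocm* (0.70), *Chrna10* (0.58) and *Otof* (otoferlin of the ribbon synapse, 0.54). They summed to 625 to 660 CPM in Bai1tm2b/+ and to 794 to 916 CPM in Bai1tm2b/tm2b. The 7 members tested had a median of 0.41, where all genes had 0.01. Of 10 supporting cell markers 5 were higher and 0 lower (median 0.32), with *Tectb* (1.02), *Fgfr3* (0.69), *Lfng* (0.50) and *Epyc* (0.50), and they summed to 1369 to 1542 and 1712 to 1906 CPM. Of 12 neuron markers 7 were lower and 0 higher (median −0.41), with *Slc17a7* (−0.47), *Syt2* (−0.53), *Thy1* (−0.42) and *Nefl* (−0.45), and they summed to 16330 to 18443 and 12043 to 13751 CPM. Their part in the difference of *Barhl1* was not tested. Scaled to the mean of the hair cell markers, which moved the median of all genes to −0.39, *Barhl1* was at 0.50 (adjusted p = 0.103) and *Lhx3* at 0.47 (adjusted p = 0.231). On that scale *Pou4f3* was at 0.15, *Ikzf2* at 0.01 and *Gfi1* at −0.03, *Rfx3* at −0.38 (adjusted p = 0.0636) and *Eya1* at −0.34 (adjusted p = 0.0450).

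Among the 16 other regulators tested at P22, *Sox2* (0.35, adjusted p = 0.0231) and *Gata3* (0.36, adjusted p = 0.0295), factors of the prosensory domain and supporting cells, were higher and *Srrm4* (−0.41, adjusted p = 0.0247) was lower. Of the 10 bHLH inhibitors and Prox1, *Id1* (0.41), *Id2* (0.36) and *Id3* (0.27) were higher. *Prox1*, a homeodomain factor of supporting cells that is also made by spiral ganglion neurons, was lower (−0.59, adjusted p = 0.00665). The cerebellar granule cell list had 1 of 7 higher (*Zic2*) and 4 of 7 above 0 (median 0.03). It summed to 131.7 to 153.9 CPM in Bai1tm2b/+ and to 154.5 to 176.9 CPM in Bai1tm2b/tm2b, narrowly without overlap. The part of these markers in the levels of the members was not tested. The Schwann and myelin list had 2 of 8 higher and the lymphocyte list 0 of 4 in either direction. The marrow neutrophil list had 1 of 9 higher (*S100a9*). Its sum was 69.9 and 57.7 CPM in Bai1tm2b/tm2b replicates 1 and 2 and 7.92 to 20.1 CPM in the other 4 libraries.

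At P7, the libraries in counts gave no call for any member. None of 16026 genes passed (0% in either direction) with edgeR, while 763 genes had an unadjusted p under 0.05 (4.76%). DESeq2 called 60 genes higher and 4 lower, none of them a member. All 9 members had log2 fold changes above 0, beside 50.9% of all genes, and none had an unadjusted p under 0.05. Of the marker lists, 19 of 20 hair cell, 7 of 10 supporting cell and 0 of 12 neuron markers were above 0. *Insm1* read 0.468, 0.367 and 0.457 CPM in Bai1tm2b/+ and 0.686, 0.554 and 0.71 CPM in Bai1tm2b/tm2b, from 19 to 35 counts each. Its groups did not overlap, at 0.63 (SE 0.283, adjusted p = 0.894). *Rfx3* read 34.3, 27.3 and 32.2 CPM against 35.7, 38.4 and 34.8, also without overlap, at 0.24 (SE 0.103, adjusted p = 0.894). Higher without overlap were 2 of 9 members, beside 4.91% of all genes.

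The other members overlapped between genotypes at P7. *Barhl1* read 9.48, 7.14 and 8.08 CPM against 7.71, 16.6 and 9.42, at 0.47 (SE 0.276), with a 95% interval from −0.18 to 1.12. *Pou4f3* read 23.3, 12.5 and 17.1 CPM against 13.4, 26.3 and 19.0, at 0.17 (SE 0.287). *Atoh1* read 1.35, 1.07 and 1.83 CPM against 0.757, 2.74 and 1.22, at 0.16 (SE 0.471), an interval from −0.95 to 1.26. In these 3 genes Bai1tm2b/tm2b replicate 6 was far above replicate 5.

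*Gfi1* read 14.6, 10.9 and 12.1 CPM against 10.3, 19.7 and 13.6, at 0.23 (SE 0.228). *Lhx3* read 5.76, 4.17 and 6.27 CPM against 4.78, 7.11 and 6.33, at 0.19 (SE 0.208). Among the members whose groups overlapped, *Ikzf2* was the exception in the homozygous libraries, which were nearly level at 28.3, 27.1 and 26.6 CPM. Its heterozygous libraries read 28.7, 19.2 and 25.8 CPM, and its log2 fold change was 0.18 (SE 0.150). *Eya1* read 168, 143 and 171 CPM against 141, 195 and 159, at 0.06 (SE 0.124) with an interval from −0.23 to 0.35.

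Bai1tm2b/tm2b replicate 6 was the highest of the 6 libraries for 7 of the 9 members, all except *Ikzf2* and *Insm1*. Bai1tm2b/+ replicate 6 was the lowest for 6 of them: *Pou4f3*, *Barhl1*, *Lhx3*, *Ikzf2*, *Insm1* and *Rfx3*. *Atoh1*, *Gfi1* and *Eya1* were lowest in Bai1tm2b/tm2b replicate 5. The hair cell markers summed to 1373 CPM in the first of these libraries and to 858 CPM in the second, the highest and lowest of the 6, beside 981 to 1291 in the others. The Schwann and myelin list was lowest in the first (5408 CPM) and highest in the second (15959 CPM), and the supporting cell markers were highest in the first (12744 CPM). None of the 20 hair cell markers, 10 supporting cell markers or 12 neuron markers passed with edgeR, and their medians were 0.17, 0.05 and −0.45. The unadjusted p was under 0.05 for 2 neuron markers and for 0 of the others, and DESeq2 called 1 neuron marker lower and 0 of the others. The marker sums and the members share these libraries, and the part of the marker levels in the members' values was not tested. Without Bai1tm2b/tm2b replicate 6 the log2 fold changes turned to −0.49 for *Atoh1*, −0.09 for *Pou4f3*, −0.04 for *Gfi1* and −0.07 for *Eya1*. Without Bai1tm2b/+ replicate 6 they were −0.02 for *Atoh1*, −0.03 for *Pou4f3* and −0.02 for *Eya1*. The cerebellar granule cell list, which includes *Neurod1*, *Pax6* and *Cbln1*, summed to 157 to 190 CPM in Bai1tm2b/+ and to 204 to 231 CPM in Bai1tm2b/tm2b, with 0 of 7 genes passing with edgeR. In that list 4 of the 7 had an unadjusted p under 0.05, and DESeq2 called 4 higher.

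**Figure D3:**
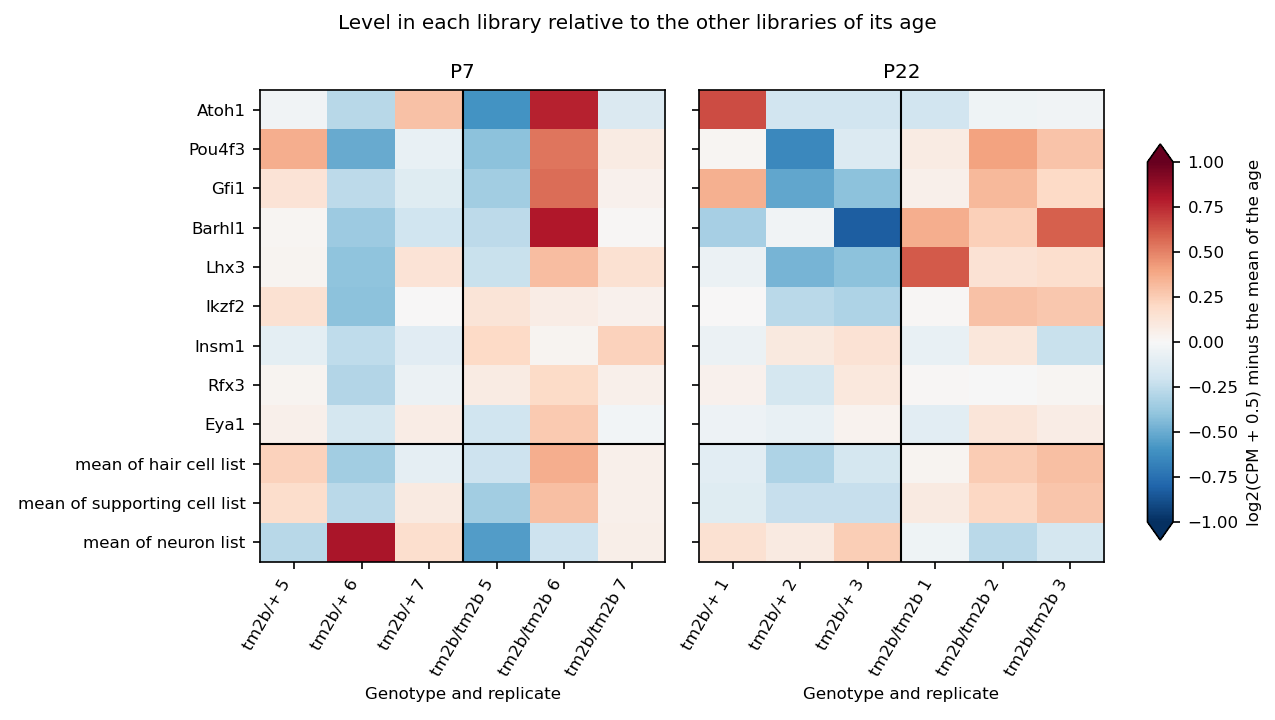
Log2(CPM + 0.5) of each member, and means of the hair cell, supporting cell and neuron lists, in each library minus the mean of the 6 libraries of that age (color, red higher, blue lower, saturated at 1). Columns are libraries by genotype and replicate. At P7 the column of Bai1tm2b/tm2b replicate 6 is red and that of Bai1tm2b/+ replicate 6 blue for most members and for the hair cell list, and at P22 *Pou4f3*, *Barhl1*, *Lhx3* and *Ikzf2* are higher in the 3 homozygous columns.

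In the 8 P7 libraries in rounded TPM, *Eya1* was the member that passed. It read 49, 46, 41 and 44 TPM in Bai1tm2b/+ and 63, 55, 54 and 60 TPM in Bai1tm2b/tm2b, with no overlap. The means were 45 ± 3.37 and 58 ± 4.24 TPM (SD, n = 4). Its highest libraries, Bai1tm2b/tm2b replicates 1 and 4, had the lowest Schwann and myelin sums of the 8 (11621 and 13960 TPM, against 16796 to 23203) and the lowest hair cell marker sums (531 and 503 TPM, against 604 to 761). Bai1tm2b/tm2b replicates 2 and 3 had the highest Schwann and myelin sums (22667 and 23203 TPM), and their *Eya1* levels of 55 and 54 TPM were also above all Bai1tm2b/+ libraries. The Schwann and myelin list had 1 of 8 genes lower between genotypes, and the part of these markers in the *Eya1* level was not tested. The log2 fold change on the log2(TPM + 1) scale, after TMM scaling, was 0.24 (SE 0.0639, limma adjusted p = 0.0474). An exact 2-sided permutation test gave p = 0.0286, the smallest that 4 against 4 libraries allow. Thus 1 of the 4 members tested passed as higher, where 4.26% of 11740 genes did, and 0 as lower (4.07%). No overlap in the higher direction was found for 12.2% of all genes. The call lay at its threshold: it was lost without any of 6 of the 8 libraries (adjusted p up to 0.132) and with a minimum mean of 1 TPM in place of 5 (0.0630). With the replicate number as a block in the fit it was also lost. Over all genes, 500 passed as higher and 478 as lower with all 8 libraries, 0 without any of the same 6 libraries, and 1423 and 1290 without Bai1tm2b/tm2b replicate 1. In the libraries in counts the log2 fold change of *Eya1* was 0.06. The difference between these sets was not tested.

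*Pou4f3* read 20, 16, 20 and 23 TPM in Bai1tm2b/+ and 16, 24, 23 and 17 TPM in Bai1tm2b/tm2b, at −0.11 (SE 0.157, adjusted p = 0.664). *Gfi1* read 5, 6, 4 and 5 TPM against 6, 4, 6 and 7, at 0.06 (SE 0.151), and *Rfx3* read 6, 6, 5 and 5 TPM against 7, 6, 6 and 6, at 0.06 (SE 0.0926). All 3 overlapped, with 95% intervals from −0.45 to 0.24, −0.27 to 0.40 and −0.15 to 0.26.

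The remaining 5 members were under the minimum mean of 5 TPM, where rounding leaves few distinct values. *Barhl1* read 3, 2, 3 and 2 TPM against 3, 3, 3 and 4 (exact permutation p = 0.286). *Lhx3* read 3, 2, 1 and 2 TPM against 3, 2, 3 and 3 (exact permutation p = 0.371), and *Ikzf2* read 3 TPM in all 8 libraries. *Atoh1* and *Insm1* were listed at 0 or 1 TPM throughout, at 1 TPM in 2 libraries of each genotype. Hair cell markers here had 1 higher (*Otof*, 0.53) and 1 lower (*Smpx*, −0.33) of 16 tested, with a median of −0.04. Supporting cell markers had 2 of 10 higher (*Otog* and *Tecta*) and neuron markers 1 of 10 higher (*Syt2*, median 0.22). Of the other regulators 0 of 13 and of the bHLH and Prox1 list 0 of 10 passed with limma, with an unadjusted p under 0.05 for 5 and 3. Above 0 were 12 of the 13 (median 0.16) and 4 of the 10 (median −0.02). The other regulators summed to 549 to 700 TPM in Bai1tm2b/+ and to 749 to 771 TPM in Bai1tm2b/tm2b, without overlap, as for *Eya1*.

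**Figure D4:**
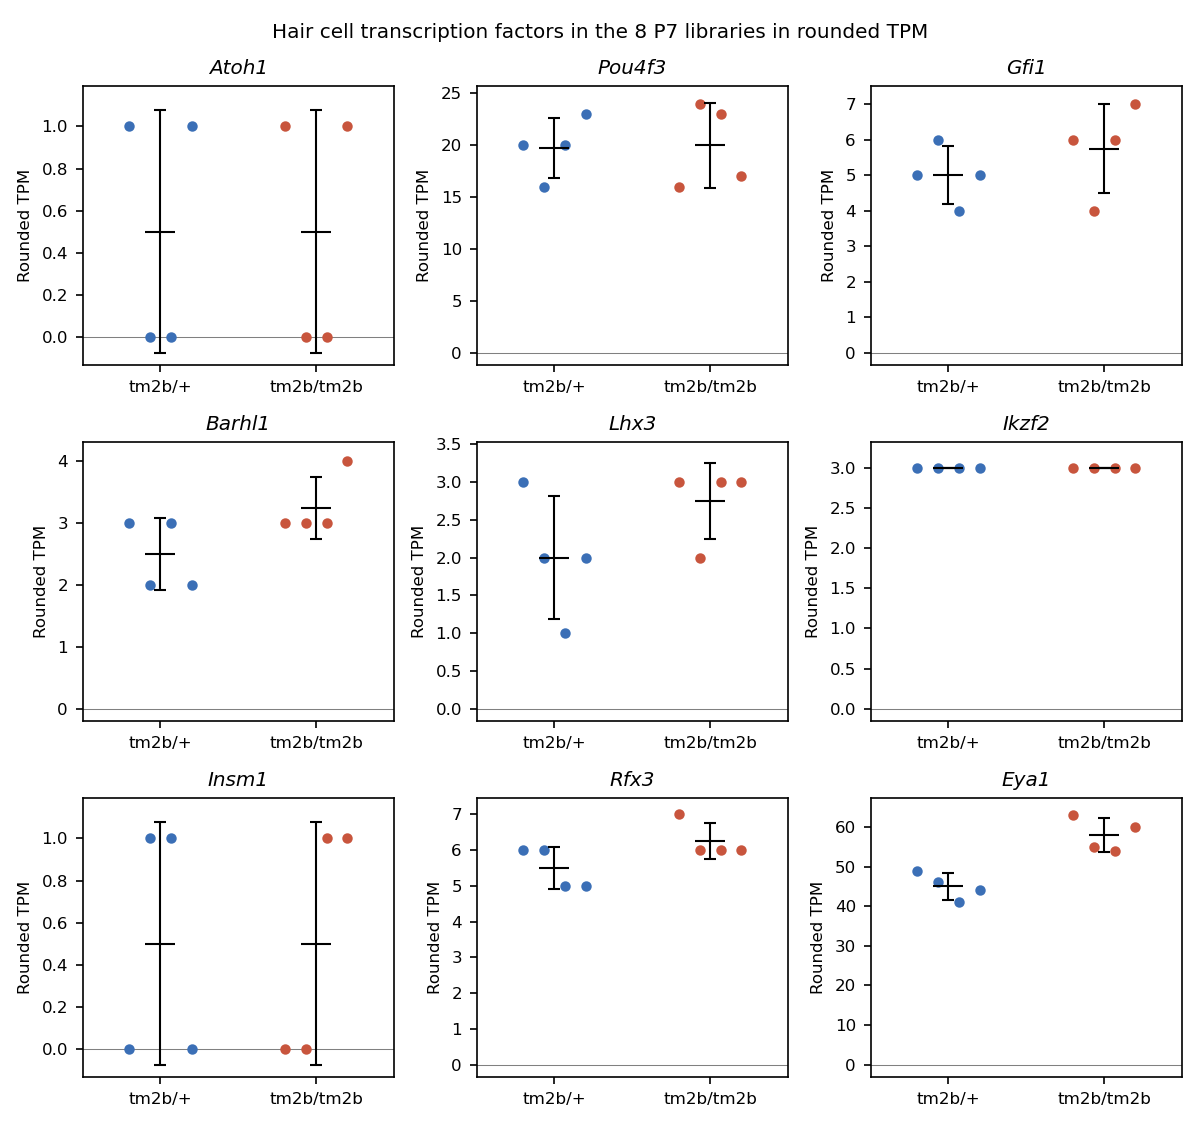
Rounded TPM of each of the 9 genes (vertical axes, each reaching 0) in the 8 P7 libraries deposited in that unit, by genotype. Points are libraries, long dashes and bars the mean and SD of 4 libraries. *Eya1* is the gene whose groups do not overlap, at 41 to 49 and 54 to 63 TPM, and *Ikzf2* reads 3 TPM in every library.

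**Figure D5:**
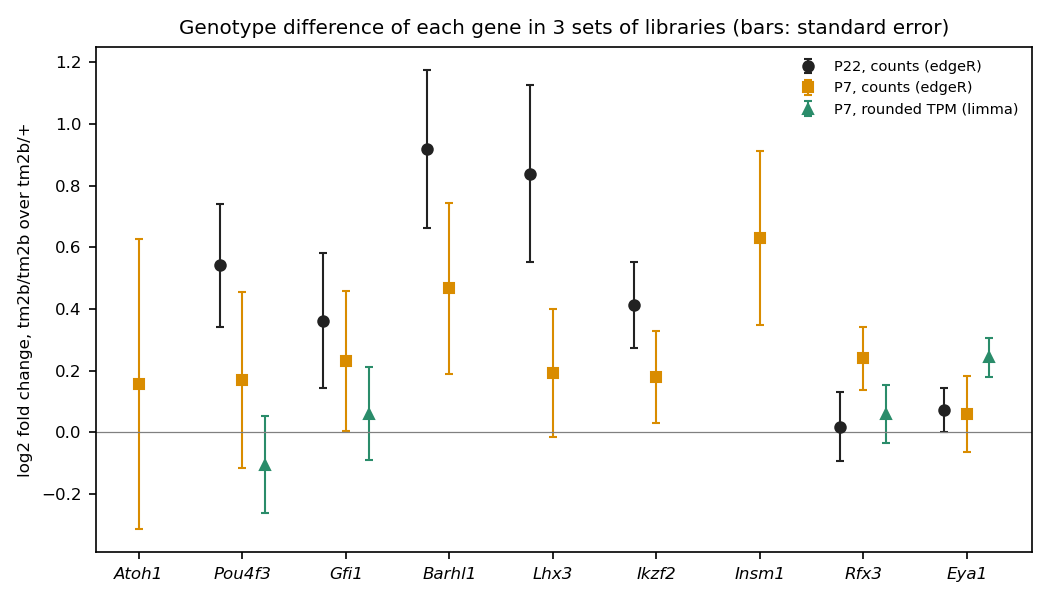
Log2 fold change of Bai1tm2b/tm2b over Bai1tm2b/+ (vertical axis) for each member (horizontal axis) in the P22 counts, the P7 counts and the P7 rounded TPM, with standard errors as bars; a missing point is a gene under the filter. *Barhl1* at P22 (0.92) and *Eya1* in the rounded TPM (0.24) are the points that passed.

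Whether the genotype difference itself changed with age was tested as an interaction in the 12 libraries in counts. No member passed, and 5 of 16314 genes did, all lower (0.0306%). With 1 library left out, the calls over all genes ranged from 0 to 41 higher and from 0 to 71 lower, both highest without Bai1tm2b/tm2b replicate 5 of P7. None of the 9 had an unadjusted p under 0.05, as 1666 genes did (10.2%), and DESeq2 called 48 genes higher and 129 lower with no member among them. The interaction was 0.66 for *Lhx3* (SE 0.346, adjusted p = 0.539), 0.46 for *Barhl1* (SE 0.409), 0.38 for *Pou4f3* (SE 0.385), 0.25 for *Ikzf2* (SE 0.203), 0.14 for *Gfi1* (SE 0.363) and 0.03 for *Eya1* (SE 0.157), in log2 units. It was −0.21 for *Rfx3* (SE 0.140), −1.39 for *Insm1* (SE 0.871) and −1.92 for *Atoh1* (SE 1.56). The positive difference of *Barhl1* at P22 and its value of 0.47 at P7 were therefore not distinguished from each other.

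The genes whose profiles across the 12 libraries lay closest to each member were named by the root mean square (RMS) difference of log2(CPM + 0.5), each profile centred on its own mean. These profiles share the age difference and the libraries, so the distances are descriptions only. For *Pou4f3* they were *Grxcr1* (RMS 0.172), *Gipc3* (0.181) and *Muc15* (0.185), and for *Ikzf2* *Asap3* (0.105), *Ush1c* (0.114) and *Lama5* (0.115). *Barhl1* was closest to *Ttc24* (0.198), *9230102O04Rik* (0.235) and *Baiap2l2* (0.241). *Lhx3* lay near *Gad1* (0.179) and *Gipc3* (0.190), so that *Gipc3* was named for both *Pou4f3* and *Lhx3*. *Gfi1* lay near *Mslnl* (0.186), *Armc3* (0.198) and *Fibin* (0.201), and *Rfx3* near *Igdcc4* (0.0896), *Fam46c* (0.102) and *Ccdc88c* (0.110). *Eya1*, the most abundant member, lay nearest to *Lrrc16a* (0.0741), *Ctnnd1* (0.0780) and *2900026A02Rik* (0.0781). For *Atoh1* (*Lrrc43* 0.233, *Mlf1* 0.247, *Slc2a9* 0.247) and *Insm1* (*4930427A07Rik* 0.103, *Zfp661* 0.106, *Gm12108* 0.119) the added 0.5 CPM shapes the profile. Among the members, *Ikzf2* and *Rfx3* were the closest pair (RMS 0.179).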

How the data were processed

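RNA from the sensory epithelium and spiral ganglion was sequenced by the authors as paired-end poly A libraries, run through the nf-core RNA pipeline on mm10 (STAR and Salmon per the labels), with versions, annotation release and strand not given in the sources used here. For P22 and for P7 replicates 5 to 7, the authors deposited estimated counts per gene from Salmon, not normalized, and these were rounded to whole numbers here. For P7 replicates 1 to 4, the authors deposited whole numbers summing to about 1e6 per library, entered as a score and read as rounded TPM. Replicates are separate pools of 4 mice per the labels. The P7 libraries were tested apart by unit. The labels give P7 batches of 3 and 4 replicates per genotype but do not name their libraries.

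In R 4.3.3, counts were filtered with filterByExpr, scaled by TMM and tested by quasi-likelihood in edgeR 4.0.16 (DESeq2 1.42.0 as an alternative). Rounded TPM were tested with limma 3.58.1 (trend) on log2(TPM + 1) after TMM scaling, where the mean reached 5 TPM. P values were adjusted by the Benjamini-Hochberg method over all genes tested, and a gene passed at an adjusted p under 0.05. CPM used TMM-scaled totals of the 12 libraries in counts. TPM from counts used GENCODE exon lengths (23350 genes). The 9 members were named in every comparison, and from each other list at most the 4 genes with the smallest p and the 3 most abundant hair cell markers, with *Myo7a* as a reference chosen after its values were seen. Steps were tested on simulated data. The members, lists and tests were chosen with earlier results of these data known. Standard errors of edgeR were derived from its F statistic. Lists are described by counts and medians. Some genes that the naming rules would give are not reported here.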

Additional observations from a re-analysis of the deposited data

Results flagged for a closer look

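In groups of 4 libraries in rounded TPM, 3 values lay apart from the others of their group by Dixon's test at the 95% level. *Barhl1* read 4 TPM in Bai1tm2b/tm2b replicate 4 and 3 in the other 3 libraries. *Lhx3* read 2 TPM in Bai1tm2b/tm2b replicate 2 and 3 in the others. *Rfx3* read 7 TPM in Bai1tm2b/tm2b replicate 1 and 6 in the others. Each of them differs by 1 TPM, the step of the rounding. Where 3 values of a group are equal, this test always flags the other one, so a rate of about 1 in 20 groups does not apply. In all, 16 groups were tested.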

How the results depend on the processing

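With age, the count of 9 members lower was within 1.5 times of its value in every alternative run, including each library left out; the calls lost were *Gfi1* and *Eya1* under scaling to hair cell markers and *Atoh1* under the study's limits, of which the one on the log2 standard deviation was read here as a limit on the standard error. At P22 the 1 member that passed as higher became 0 under scaling to hair cell markers (where *Barhl1* was at 0.50 and 1 member, *Eya1* at −0.34, passed as lower, with *Rfx3* at −0.38 and *Gfi1* at −0.026 also turned) and 0 with the replicate block (*Barhl1* 0.94, adjusted p = 0.0633), and ranged from 0 to 1 with a library left out. Whether the replicate numbers pair the samples is not known here. Same-numbered libraries correlated at −0.01 to 0.04 at P22, −0.16 to 0.08 in the P7 counts and −0.23 to −0.01 in the rounded TPM. Libraries of different number correlated at −0.06 to 0.05, −0.32 to 0.30 and −0.14 to 0.39. The values were centred within each genotype over 3 or 4 libraries, so these correlations cannot exclude a pairing. In the rounded TPM the 1 member higher became 0 with a minimum of 1 TPM, with no filter, under scaling to hair cell markers, with the replicate block (*Eya1* adjusted p = 0.117) and with the study's limits, and ranged from 0 to 1 with a library left out. The block changed no other member's call. The cause was not tested, other than that the study's limits exclude changes under 0.5.

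Direction turned in members that had not passed. In the P7 counts scaled to hair cell markers, *Atoh1* was at −0.095 and *Eya1* at −0.12. In the rounded TPM without TMM, *Pou4f3* was at 0.0073. In the interaction, *Eya1* was at −0.0071 with DESeq2 size factors and with the DESeq2 test, and scaled to hair cell markers *Gfi1* was at −0.064, *Ikzf2* at −0.049 and *Eya1* at −0.22. With a library left out, *Rfx3* ranged from −0.065 to 0.080 at P22, and in the P7 counts *Atoh1* from −0.49 to 0.47, *Pou4f3* from −0.091 to 0.43, *Gfi1* from −0.037 to 0.41 and *Eya1* from −0.068 to 0.14. *Gfi1* ranged from −0.012 to 0.20 in the rounded TPM, and in the interaction *Atoh1* from −2.51 to 3.55, *Gfi1* from −0.052 to 0.50 and *Eya1* from −0.072 to 0.16.

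Over all genes, scaling to hair cell markers moved the calls at P22 from 779 higher and 1125 lower to 90 and 8041, and with age from 6239 and 6854 to 9404 and 2727. With age and no TMM they were 4426 and 9014, at a median of −0.34. In the rounded TPM, 500 and 478 became 1407 and 132 without TMM, 39 and 5 scaled to hair cell markers, and 0 and 0 with a minimum of 1 TPM, no filter or the replicate block. The study's limits left 269 and 218 at P22 and 70 and 20 in the rounded TPM. In the P7 counts, scaling to hair cell markers gave 47 higher and 30 lower. With a library left out, the calls in the rounded TPM ranged from 0 to 1423 higher and from 0 to 1290 lower, and at P22 from 211 to 805 higher and from 419 to 1303 lower. The marrow neutrophil count of 1 at P22 ranged from 0 to 8. Depth limits *Atoh1* and *Insm1* at P22, and rounding limits the 5 members under a mean of 5 TPM in the rounded TPM.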

Other observations

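The levels of the members in the P7 libraries of each unit, each on its own scale, were as follows. In the rounded TPM, *Eya1* averaged 45 and 58 TPM by genotype, *Pou4f3* 19.8 and 20, *Gfi1* 5 and 5.75, and *Ikzf2* 3 and 3. In the TPM computed from the counts of replicates 5 to 7, *Eya1* averaged 90.9, *Pou4f3* 33.8, *Gfi1* 18.5 and *Ikzf2* 9.79 TPM. The gene lengths behind the deposited TPM are not given in the sources used here, and no test was made between the units.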
